A study of Homo sapiens with 4 samples.

Results

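Heat-shock proteins and their DNAJ co-chaperones were examined in FaDu, an established squamous carcinoma line from the hypopharynx, with and without combined inhibition of DNA methylation and histone deacetylation. The genes were chosen by symbol, without use of their values. They comprise the HSPA, HSPB, HSP90 and DNAJA, DNAJB and DNAJC families, HSPD1, HSPE1, HSPH1, CRYAB and HSF1. This gave 83 of the 25548 gene symbols measured, none of them repeated in the table, and left out 5 hyphenated symbols of antisense and readthrough transcripts. The control FaDu cells received vehicle, labelled DMSO only. The protocol names DMSO as vehicle for Aza (5-aza-2'-deoxycytidine, a cytidine analogue that depletes DNA methyltransferases) and ethanol as vehicle for trichostatin A (TSA), which blocks histone deacetylases. The treated FaDu cells received 5 µM Aza on days 1, 2 and 3 and 100 nM TSA on day 3. Aza and TSA were given together, so their separate effects cannot be told apart. Both were grown in RPMI-1640 with serum. Each group was 1 messenger RNA library of this single line, so no difference below has a replicate check and no p-value is given. The series also has 2 UMSCC47 libraries, which are not used here for any gene.

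Chaperones help proteins fold, keep unfolded chains from aggregating and hand damaged ones to degradation. HSP70 proteins (HSPA genes) bind and release unfolded segments in an ATP-driven cycle that J-domain proteins (DNAJ genes) start and nucleotide exchange factors, HSPH1 among them, complete. HSP90 matures kinases and hormone receptors, small heat-shock proteins (HSPB genes and CRYAB) hold unfolded proteins without ATP, and HSPD1 with HSPE1 forms the folding chamber of mitochondria. HSF1 is the transcription factor that switches on the inducible members by binding heat-shock elements.

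Levels are in FPKM, fragments per kilobase of transcript scaled to the mapped fragments, a per-length unit in which genes can be compared within a library. The columns summed to 491963 FPKM (DMSO) and 516692 FPKM (Aza/TSA). FPKM do not give read numbers, so the absolute depth is unknown. Among 143 short RNA genes, 38.5% had ratios between the libraries of whole numbers up to 6 within 0.01%, with 1 read worth 0.9998 times as much FPKM in the treated library as in the DMSO library. All 10 squamous epithelial markers checked, such as KRT5, KRT17 and TP63, were at 1 FPKM or more in both libraries. Of 5 leukocyte, 4 endothelial and 6 fibroblast markers, 2, 0 and 0 reached 1 FPKM under vehicle and 2, 1 and 1 under Aza/TSA. Their summed levels were 14.7, 0.943 and 0.794 FPKM under vehicle and 56.2, 3.73 and 3.65 under Aza/TSA. CD68 made up 13.0 and 51.3 FPKM of the leukocyte sum, KDR was listed at 0 in both libraries, and CD3E, PECAM1, COL1A2, PDGFRB, LUM and DCN were listed at 0 in the DMSO library. The part of these markers in the results below was not tested. In bulk RNA, fewer cells with a transcript and less transcript per cell cannot be told apart.

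The chaperone genes as a whole differed between the libraries about as often as other genes. The change of a gene is log2((treated FPKM + 1)/(DMSO FPKM + 1)), so that changes at low levels come out too small. Calls at 2-fold and 1.5-fold are on this scale, while folds and ratios of single genes are of FPKM as deposited. The 3 largest changes on this scale were in HSPA2, HSPB8 and CRYAB. Their ranking depended on the pseudocount, the 1 FPKM added to each level. With 0.1 FPKM instead, DNAJC22 (2.93), HSPB8 (2.83), DNAJB3 (2.75) and CRYAB (2.58) came before HSPA2 (2.44). Genes with 1 FPKM or more in at least 1 of the libraries count as measured. By this rule 69 members were measured and 14 were not. With Aza/TSA 11 members were at least 2-fold higher, 15.9% of those measured, where 16.1% of all 13558 measured genes were. At least 2-fold lower were 5 members, or 7.25%, where 5.21% of all measured genes were. The median change was 0.15 on the log2 scale for the members and 0.13 for all measured genes. With a threshold of 1.5-fold, 23 members (33.3%) were higher and 11 (15.9%) lower, against 30.7% and 16.1% of all measured genes, and 35 members stayed within 1.5-fold. Among the 54 members at 5 FPKM or more, 6 were at least 2-fold higher and 4 lower, where 15.8% and 5.85% of all such genes were, and 17 and 9 passed 1.5-fold, where 29.9% and 17.5% did. These shares were near the background, so the families are described separately below. Members reached 10 FPKM more often than other genes, with 42 of 83 (50.6%) in the DMSO library against 22.4% of all symbols. The 11 members at 100 FPKM or more in the DMSO library included 1 with a 2-fold difference, HSPB1. Of the 11 members called higher, 9 were under 10 FPKM in the DMSO library. A gene measured only through its treated level had to be higher, which holds for HSPB8, CRYAB, DNAJB3 and DNAJC22.

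**Figure D1:**
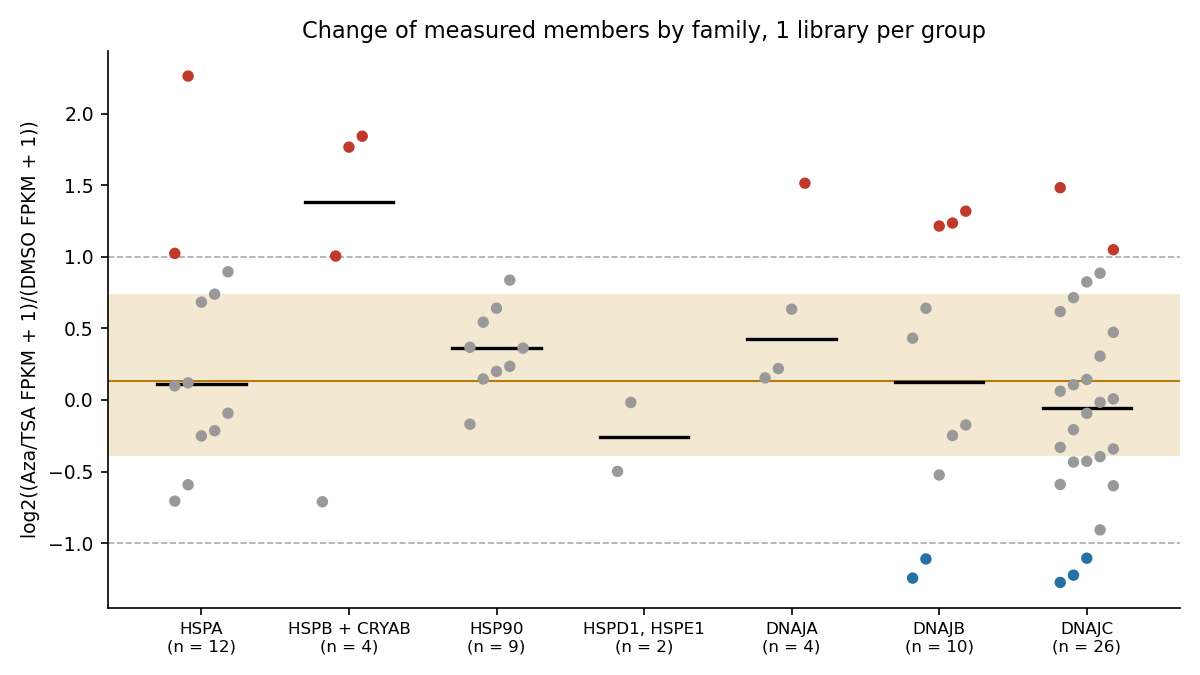
Log2 change, treated over DMSO with a pseudocount of 1 FPKM, of each measured member of the 7 families (points; HSPH1 and HSF1 are not shown; red at least 2-fold higher, blue at least 2-fold lower, grey between). Black bars are family medians, the brown line and band are the median and interquartile range of all measured genes, and dashed lines mark 2-fold; the 5 lower members are all in DNAJB and DNAJC.

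Changes ran with the GC content of transcripts, among chaperones as among other genes. Over 6642 genes that reached 5 FPKM in each library the Spearman correlation of change with GC content was 0.67, and over the 69 measured members it was 0.51. These are descriptions across genes of the same pair of libraries, not independent replicates, and what produced the trend was not tested. The 11 higher members had a median GC content of 53.6% (42.3% to 64.3%) and the 5 lower members one of 38.7% (33.1% to 41.4%). These ranges did not overlap, but those of all higher and all lower genes are not given here. The gap is therefore not shown to be particular to chaperones. After the trend over all genes was subtracted, 9 members were at least 2-fold higher (13.0%, with 7.57% of all genes) and 1 lower (1.45%, with 4.32% of all genes). Of the 11 called higher before the correction, 6 were also called after it: HSPA2, DNAJC6, HSPB8, DNAJA4, CRYAB and DNAJB3. None of the 5 called lower was. Calls made by the correction alone were DNAJB11, HSP90AA4P and HSP90AA6P (higher) and HSPB11 (lower), of which the HSP90 genes are copies that can share reads with HSP90AA1. The corrected value is given below beside each named member whose 2-fold call it changes.

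**Figure D2:**
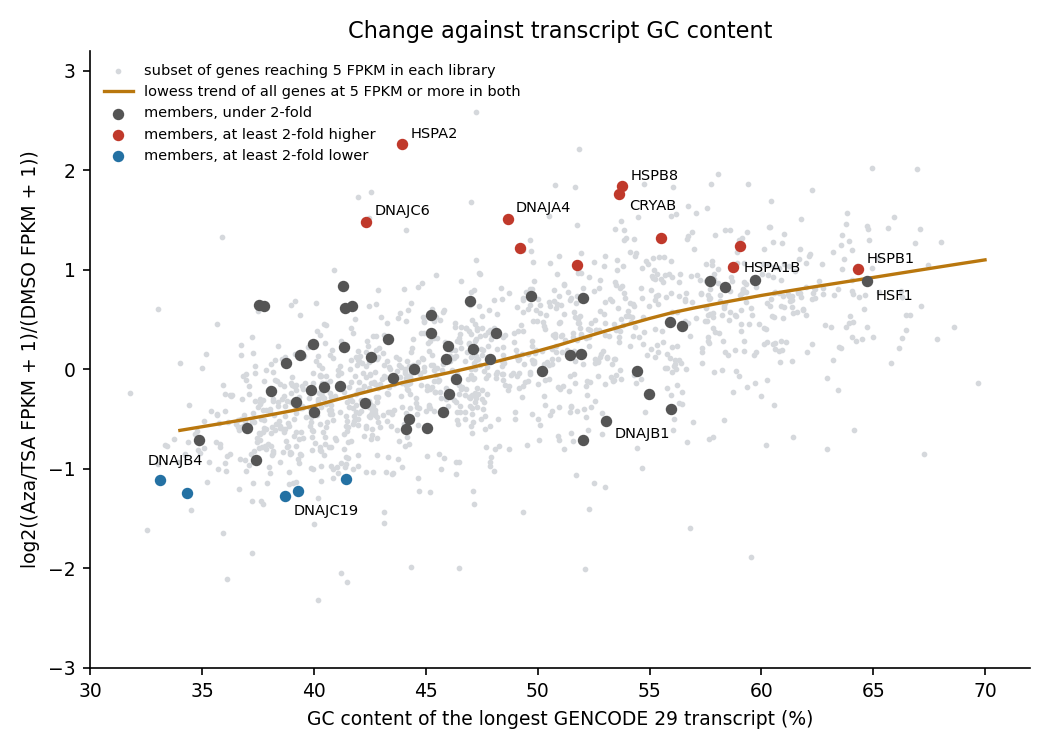
Log2 change (treated over DMSO, pseudocount 1 FPKM) against GC content in percent of the longest annotated transcript, for measured members (coloured points) and a regular subset of the genes that reached 5 FPKM in each library (pale points), with the trend of all such genes. HSPA2, DNAJC6 and DNAJA4 lie well above the trend, HSPB1 and HSF1 lie close to it, and the 5 lower members lie at its GC-poor end.

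Promoter windows were searched for exact matches to the elements that name this system. RefSeq promoter windows (GRCh38.p14, 250 bases before to 50 after the start, another build than the hg19 of the files) were matched by symbol for 65 of the 83 members. A full heat-shock element was searched on both strands as GAA, any 2 bases, TTC, any 2 bases and GAA. It was found in 4 member windows (DNAJA1, DNAJB6, HSPA6 and HSPA8), which is 6.15% of them, against 0.490% of all 35116 windows. The shorter GAANNTTC, which reads the same on both strands and is contained in the full element, was in 11 member windows (16.9%) and 6.77% of all. They were those 4 and DNAJB7, HSPA1A, HSPA1B, HSPA1L, HSPB1, HSPB6 and HSPB8. The other shorter part of the full element, TTCNNGAA, was in 8 member windows (12.3%) and 7.74% of all windows. Those were the same 4 and DNAJC15, HSPA9, HSPB3 and HSPB6. The windows of HSPA1A and HSPA1L overlap by 241 bases and HSPA1B is a near-identical copy of HSPA1A, so their matches may not be separate. The endoplasmic reticulum stress element (CCAAT, any 9 bases, CCACG, on either strand) was in the windows of HSPA5 and HSP90B1 and in 0.0769% of all windows. A match is a description of letters and does not show binding. The windows of DNAJB1, HSP90AA1, HSPD1, HSPE1 and HSPH1 matched neither the full nor either shorter heat-shock pattern. A missing match does not show that a gene lacks the element, which may vary in its letters or lie outside the window. The 250 bases before the start are given for 6 members on which the comparisons below turn, from 5′ to 3′ on the strand of the gene. Capitals mark the full heat-shock element in HSPA8 (beginning 230 and 55 bases before the start) and HSPA6 (74 bases), the stress element in HSPA5 (66 bases) and HSP90B1 (194 and 89 bases), and GAANNTTC in HSPB8 (88 bases). HSPA2, the member with the largest change at a pseudocount of 1 FPKM, had no match to these elements in its window.
HSPA8, chr11:123062137-123062386, minus strand: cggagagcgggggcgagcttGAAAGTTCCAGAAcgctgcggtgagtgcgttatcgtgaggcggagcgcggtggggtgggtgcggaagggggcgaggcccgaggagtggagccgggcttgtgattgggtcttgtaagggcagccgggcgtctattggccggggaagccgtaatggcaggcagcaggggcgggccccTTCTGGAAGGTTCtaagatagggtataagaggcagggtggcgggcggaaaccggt
HSPA6, chr1:161524290-161524539, plus strand: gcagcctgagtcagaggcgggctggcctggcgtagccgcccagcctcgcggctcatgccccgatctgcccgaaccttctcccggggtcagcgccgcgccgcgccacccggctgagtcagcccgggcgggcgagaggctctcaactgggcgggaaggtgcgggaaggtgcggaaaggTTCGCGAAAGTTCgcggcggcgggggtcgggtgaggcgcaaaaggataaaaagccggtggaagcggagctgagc
HSPA5, chr9:125241344-125241593, minus strand: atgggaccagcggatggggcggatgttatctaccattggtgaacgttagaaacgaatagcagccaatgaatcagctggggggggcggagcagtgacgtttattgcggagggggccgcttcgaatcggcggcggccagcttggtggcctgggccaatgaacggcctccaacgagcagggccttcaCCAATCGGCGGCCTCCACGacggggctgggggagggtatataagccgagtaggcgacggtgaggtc
HSP90B1, chr12:103930160-103930409, plus strand: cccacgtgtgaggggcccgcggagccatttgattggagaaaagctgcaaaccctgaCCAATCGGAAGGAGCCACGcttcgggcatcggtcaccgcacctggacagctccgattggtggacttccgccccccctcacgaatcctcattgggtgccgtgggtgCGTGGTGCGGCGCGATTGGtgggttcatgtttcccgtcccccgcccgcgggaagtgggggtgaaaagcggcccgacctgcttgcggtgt
HSPB8, chr12:119178681-119178930, plus strand: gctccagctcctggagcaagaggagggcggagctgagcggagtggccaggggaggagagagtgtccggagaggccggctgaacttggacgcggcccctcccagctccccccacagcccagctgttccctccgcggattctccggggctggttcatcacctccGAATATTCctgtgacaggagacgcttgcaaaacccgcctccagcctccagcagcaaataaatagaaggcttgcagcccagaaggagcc
HSPA2, chr14:64540491-64540740, plus strand: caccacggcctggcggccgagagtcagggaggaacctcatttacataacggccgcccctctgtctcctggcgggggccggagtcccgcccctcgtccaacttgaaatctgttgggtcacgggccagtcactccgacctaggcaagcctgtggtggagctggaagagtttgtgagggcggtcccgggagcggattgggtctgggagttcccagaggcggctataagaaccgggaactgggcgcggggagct

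HSF1 itself was 17.6 FPKM under vehicle and 33.4 FPKM under Aza/TSA, a 1.90-fold higher level. Its transcript is GC-rich (64.7%), and after GC correction its log2 change was −0.03. Members with a full element did not share a direction: HSPA8 and DNAJA1 were 1.61-fold and 1.56-fold higher, DNAJB6, a suppressor of aggregation, was lower at 79.5 and 66.8 FPKM, and HSPA6 stayed under 1 FPKM. HSPA6, a strictly stress-induced HSP70, was 0.182 FPKM under vehicle and 0.340 under Aza/TSA, and the related pseudogene HSPA7 was 0.0650 and 0.156. From a list of 15 members taken as stress-inducible, 13 were measured. The list also holds HSPA8 and HSP90AB1, which are called constitutive below. Its counts and medians are therefore not of inducible genes alone, and HSPA8 is among those counted at 1.5-fold. Of these 3 were at least 2-fold higher and none lower, where 16.1% and 5.21% of all measured genes were, and 6 were at least 1.5-fold higher, where 30.7% were. After GC correction 1 was at least 2-fold higher, CRYAB, which was measured only through its treated level. At 1.5-fold, 5 of the list were higher and 1 lower after that correction, where 1856 and 1571 of 11566 genes were. The median log2 change was 0.54, or 0.28 after GC correction. The list did not share a direction: DNAJB1, HSPD1, HSPE1 and HSPA4L were lower, at 0.692, 0.706, 0.988 and 0.840 of their DMSO level, although HSPA4L was higher after GC correction (0.24).

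Among HSP70 genes, the testis-enriched HSPA2 stood apart. HSPA2, which chaperones meiotic prophase in male germ cells, was 5.34 FPKM under vehicle and 29.4 FPKM under Aza/TSA. That is a 5.51-fold higher level and, with the pseudocount of 1 FPKM, the largest log2 change of any member (2.26, or 2.40 after GC correction). The constitutive cytosolic HSPA8 was the most abundant of them, at 598 and 960.2 FPKM, and ranked 110 and 70 among all symbols. Of the summed FPKM of the 15 HSPA genes it held 50.6% under vehicle and 57.7% under Aza/TSA. The inducible HSPA1A and HSPA1B, neighbouring near-identical copies whose reads are hard to assign, were 73.2 and 66.1 FPKM under vehicle and 137 and 135 FPKM under Aza/TSA. The log2 change of HSPA1A was 0.90, or 0.16 after GC correction. Their sum was 139 and 272 FPKM, 1.96-fold higher. HSPA1B passed 2-fold, at a log2 change of 1.02, and did not after GC correction (0.33). The testis-enriched HSPA1L, which lies head to head with HSPA1A so that their promoter windows overlap by 241 bases, was 1.45 and 3.10 FPKM, a log2 change of 0.74, or 0.57 after GC correction.

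The other HSP70 genes and HSPH1 were within 1.5-fold or lower. HSPA4, an HSP110-type exchange factor, was 88.3 FPKM under vehicle and 96.0 under Aza/TSA, and HSPH1 was 85.5 and 102 FPKM. HSPA5 (BiP) of the endoplasmic reticulum was 171 and 144 FPKM, and mitochondrial HSPA9 was 144 and 135 FPKM. All 4 were within 1.5-fold. After GC correction HSPH1 passed it (log2 change 0.63) and the sign for HSPA9 turned (0.06). HSPA13, a microsomal HSP70 at 7.41 and 4.15 FPKM, and the ribosome-associated HSPA14, at 18.3 and 11.8 FPKM, were at least 1.5-fold lower, though not after GC correction (log2 changes −0.12 and −0.51). HSPA4L, at 6.32 and 5.31 FPKM, and HSPA12A, at 1.75 and 1.94 FPKM, were within 1.5-fold, and HSPA12B was listed at 0 and then at 0.101. Over the 12 measured HSPA genes 2 were at least 2-fold higher and none lower, where 16.1% and 5.21% of all measured genes were. Their median log2 change was 0.11.

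**Figure D3:**
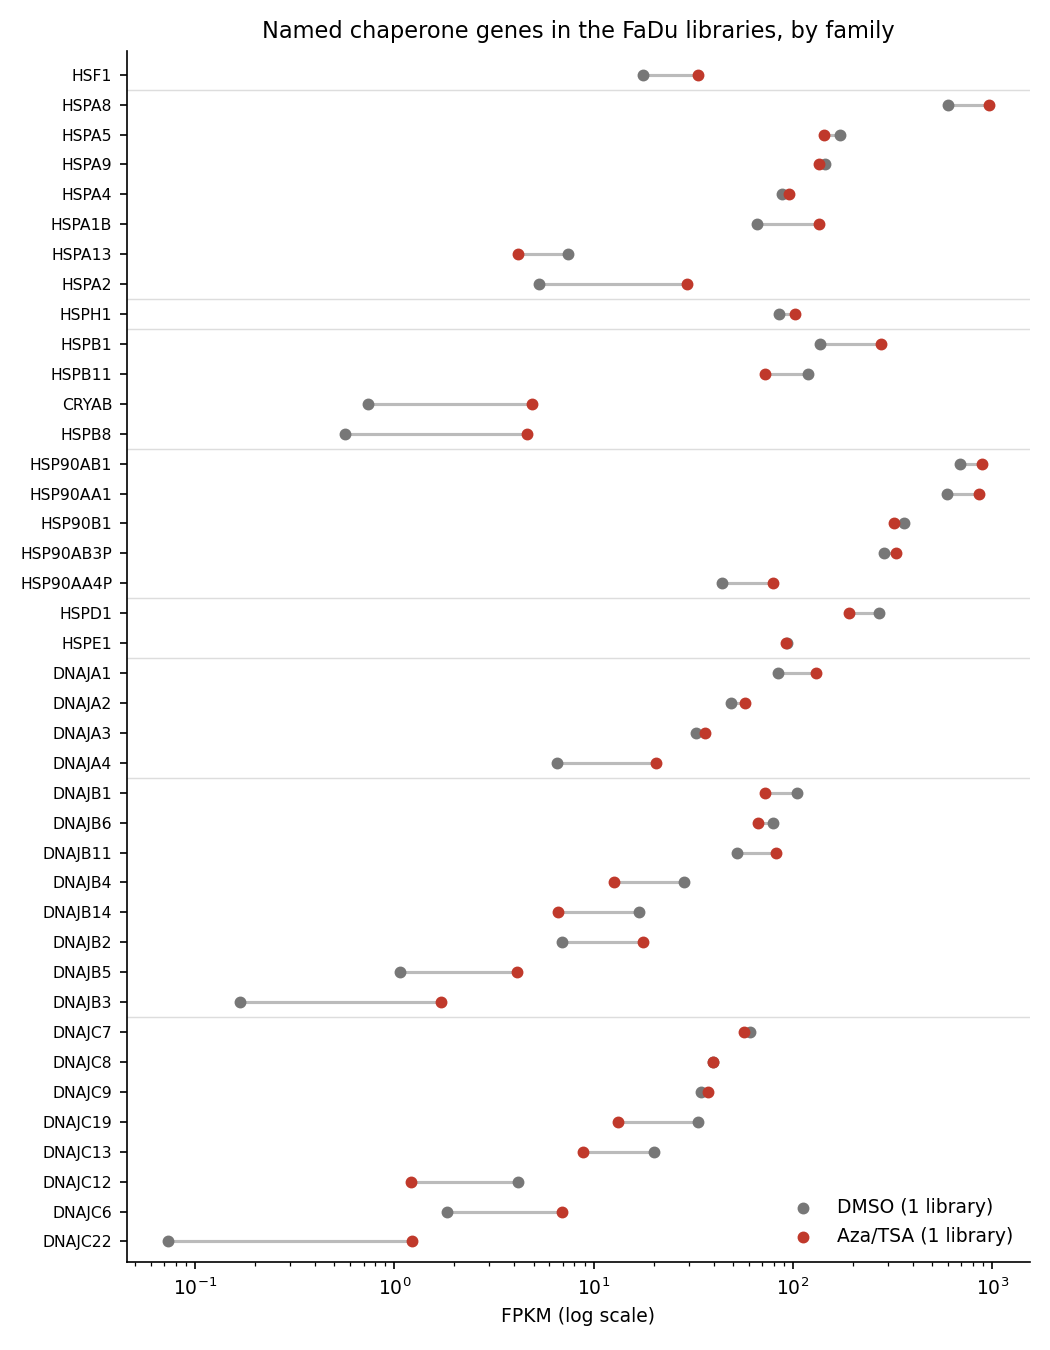
FPKM on a log scale in the DMSO library (grey) and the Aza/TSA library (red) for the members named by rule and measured at 1 FPKM or more, 1 library each, grouped by family and ordered by DMSO level. The widest gaps are in genes starting under 10 FPKM, such as DNAJC22, DNAJB3, HSPB8, CRYAB and HSPA2, while HSPE1 and DNAJC8 barely differ.

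Small heat-shock proteins split into silent, weak and abundant genes, of which 4 were measured. HSPB8 and CRYAB were measured only through their treated level, so they had to be higher, and HSPB1 lay at the 2-fold threshold, so no count is drawn from them. HSPB8, which works with BAG3 in selective autophagy, was 0.563 FPKM under vehicle and 4.60 FPKM under Aza/TSA, an 8.18-fold difference. CRYAB, the αB-crystallin of lens and muscle, was 0.735 and 4.90 FPKM, a 6.67-fold difference. Both kept their call after GC correction, at 1.41 and 1.34. HSPB1 (HSP27), the abundant member in epithelium, was 137 and 276 FPKM, 2.01-fold higher, and its log2 change after GC correction was 0.11. HSPB11 was lower, at 119 and 72.2 FPKM, and passed 2-fold only after GC correction (log2 change −1.03). RefSeq lists it as IFT25, an intraflagellar transport subunit, so the symbol places it here and not its known function. The 5 others were under 1 FPKM in both libraries. The muscle-enriched HSPB6 was 0.856 and 0.380 FPKM, HSPB7 was 0.0443 and 0.244, and HSPB2 was listed at 0 and then at 0.187. The testis antigen HSPB9 was 0.145 FPKM and then listed at 0, and HSPB3 was listed at 0 in both libraries. Of the 11 members known as enriched in muscle or nerve, 7 were measured, 4 at least 2-fold higher (CRYAB, HSPB8, DNAJB5 and DNAJC6) and 1 lower (DNAJC12). Among all measured genes, 16.1% were at least 2-fold higher and 5.21% lower. CRYAB and HSPB8 had to be higher to be measured, so the count of 4 describes the list and is not a comparison. DNAJB5, DNAJC6 and DNAJC12 passed the filter in the DMSO library, at 1.06, 1.84 and 4.18 FPKM.

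The HSP90 genes were moderately higher in the cytosol and level in the endoplasmic reticulum. HSP90AA1, the inducible cytosolic form, was 591 FPKM under vehicle and 862 under Aza/TSA, 1.46-fold higher, with a log2 change of 0.54, or 0.62 after GC correction. HSP90AB1, the constitutive form, was 693 and 891 FPKM, 1.29-fold higher. HSP90B1 (GRP94) of the endoplasmic reticulum was 362 and 322 FPKM, a ratio of 0.889, with a log2 change of 0.13 after GC correction. The 6 HSP90 pseudogenes listed in the table held 22.4% of the family's summed FPKM under vehicle and 22.3% under Aza/TSA. HSP90AB3P alone was 287 and 330 FPKM, or 41.4% and 37.0% of the level of HSP90AB1. HSP90AA4P was 44.1 and 79.5 FPKM and HSP90AA6P 55.8 and 87.5, 1.80-fold and 1.57-fold higher. Values of such copies are uncertain, because their reads can come from the parent gene, and whether they did was not tested. All 9 HSP90 genes stayed within 2-fold, with a median log2 change of 0.36. After GC correction HSP90AA4P and HSP90AA6P passed it, at 1.13 and 1.12.

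Mitochondrial chaperonin genes were lower or level. HSPD1, the chamber subunit HSP60, was 269 FPKM under vehicle and 190.1 under Aza/TSA, a ratio of 0.706. HSPE1, its lid, was 92.9 and 91.8 FPKM, a ratio of 0.988. The pair is transcribed head to head, with promoter windows that overlap by 204 bases, and the level of HSPD1 over that of HSPE1 was 2.90 under vehicle and 2.07 under Aza/TSA. DNAJC19 (TIM14), a J-protein of the mitochondrial import motor, was 33.3 and 13.2 FPKM. Its log2 change was −1.27, the lowest of any member with the pseudocount of 1 FPKM. After GC correction it was −0.84, which ends the call. The J-protein DNAJA3, which works with HSPA9, was 32.5 and 36.3 FPKM, and DNAJC15 was 14.0 and 14.7. Of the 8 members assigned to mitochondria none was at least 2-fold higher and 1 was lower, where 16.1% and 5.21% of all measured genes were. These 8 members summed to 602 and 497 FPKM.

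DNAJA genes, the J-proteins closest to bacterial DnaJ, were higher in 4 of 4 measured members, where 7594 of all 13558 measured genes were higher by any amount, and their sum was 172 FPKM under vehicle and 245 under Aza/TSA. DNAJA1, the main cytosolic partner of HSPA8, was 84.1 and 131 FPKM, and DNAJA2 was 49.1 and 57.3 FPKM. DNAJA4 was 6.55 and 20.6 FPKM, 3.14-fold higher, with a log2 change of 1.51 (1.41 after GC correction). After that correction DNAJA3 turned lower, at −0.16, so the shared direction depends on it.

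DNAJB genes went in both directions. DNAJB1 (HSP40), the classical heat-inducible J-protein that pairs with HSPA1A, was lower, at 104 FPKM under vehicle and 72.2 under Aza/TSA, a log2 change of −0.52, or −0.91 after GC correction. Set against the summed HSPA1A and HSPA1B, its level was 0.749 under vehicle and 0.265 under Aza/TSA. DNAJB2, a J-protein of neurons that binds ubiquitin, was 6.90 and 17.6 FPKM, and DNAJB5 was 1.06 and 4.14 FPKM. Neither passed 2-fold after GC correction, at log2 changes of 0.53 and 0.78. DNAJB3, a transcribed pseudogene in RefSeq, was 0.168 and 1.71 FPKM. DNAJB4 was lower at 28.3 and 12.6 FPKM, and DNAJB14, of the membrane of the endoplasmic reticulum, was lower at 17.0 and 6.59 FPKM. Both transcripts are GC-poor, at 33.1% and 34.3%, and after GC correction their log2 changes were −0.46 and −0.64. DNAJB11, a BiP co-chaperone, was 52.1 and 81.8 FPKM. Its log2 change was 0.64 before and 1.11 after GC correction, which brings it past 2-fold. DNAJB9, which also serves BiP, was 3.70 and 3.16 FPKM, and DNAJB12 was 13.3 and 18.3. Of 10 measured DNAJB genes 3 were at least 2-fold higher and 2 lower, where 16.1% and 5.21% of all measured genes were.

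DNAJC genes, which share only the J domain and have the most varied roles, had 2 of 26 measured members at least 2-fold higher and 3 lower. Among all measured genes, 16.1% were at least 2-fold higher and 5.21% lower. DNAJC6 (auxilin), which with HSPA8 strips clathrin from vesicles and is enriched in brain, was 1.84 FPKM under vehicle and 6.92 under Aza/TSA, 3.77-fold higher, with a log2 change of 1.71 after GC correction. DNAJC22 was 0.0729 and 1.22 FPKM, 16.7-fold higher by FPKM from a level near 0. It was the only member that went from under 0.1 to at least 1 FPKM. Its log2 change of 1.05 became 0.75 after GC correction, which ends the call, though that correction can be too strong near 0 FPKM. DNAJC12, which assists the aromatic amino acid hydroxylases, was 4.18 and 1.22 FPKM. DNAJC13 (RME-8), an endosomal sorting factor, was 20.2 and 8.83 FPKM. Their log2 changes of −1.22 and −1.11 became −0.82 and −0.83 after GC correction, which ends both calls. The 3 most abundant members in the DMSO library differed little: DNAJC7 was 60.7 and 56.8 FPKM, DNAJC8 39.5 and 39.7, and DNAJC9, a histone chaperone, 34.7 and 37.4. After GC correction 3 members were at least 1.5-fold higher and 4 lower, where 1856 and 1571 of 11566 genes were. Before it, 6 members were higher and 6 lower at 1.5-fold, where 30.7% and 16.1% of all measured genes were. Those not yet given include DNAJC5, the cysteine string protein of synaptic vesicles, at 8.75 and 17.0 FPKM. DNAJC14 was 14.8 and 24.98 FPKM, DNAJC4 3.36 and 6.72 and DNAJC25 3.55 and 5.97. On the lower side, DNAJC10 (ERdj5), a disulfide reductase of the endoplasmic reticulum, was 26.0 and 13.4 FPKM, DNAJC16 5.32 and 3.17 and DNAJC24 3.89 and 2.25. Of these 7, only DNAJC25 was past 1.5-fold after GC correction (log2 change 0.90), with DNAJC5 at 0.24, DNAJC14 at 0.40, DNAJC4 at 0.15, DNAJC10 at −0.42, DNAJC16 at −0.47 and DNAJC24 at −0.09.

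The 14 unmeasured members were under 1 FPKM in both libraries by definition. Their highest value was 0.856 FPKM, and DNAJA1P5, DNAJB8, DNAJC5B, DNAJC5G and HSPB3 were listed at 0 in both. Among 9 members known as restricted to or enriched in testis, HSPA2, HSPA1L and DNAJB3 were measured. The other 6 were not, including DNAJB8, DNAJC5B and DNAJC5G at 0, DNAJB7 at 0.0716 and 0.160 FPKM, and DNAJB13 at 0.0713 and 0.107 FPKM. Promoter windows of the 9 unmeasured members with a sequence had a median ratio of observed to expected CpG of 0.433, against 0.882 for the 43 measured members within 2-fold, 0.619 for 8 higher members, 0.893 for 5 lower members and 0.579 for all windows. The order had exceptions: HSPB9 (0.901) and HSPA6 (0.917) were CpG-rich and unmeasured, and DNAJC12 (0.101) was CpG-poor and measured.

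By summed FPKM, the chaperone pool was larger in the treated library, through few genes of the cytosol. The 83 members summed to 4867 FPKM under vehicle and 5984 under Aza/TSA, 1.23-fold higher, and from 0.989% to 1.16% of the column. Of the 1468 FPKM gained by the 48 members that were higher at all, HSPA8 gave 24.7%, HSP90AA1 18.4%, HSP90AB1 13.5% and HSPB1 9.47%. The summed level of the 30 members that were lower fell by 351 FPKM. HSPD1 made up 22.5% of that loss and HSPB11 13.3%. The HSPA sum was 1182 and 1664 FPKM, the HSP90 sum 2121 and 2671 and the small heat-shock protein sum 258 and 359. HSPB11, which only its symbol places there, made up 119 and 72.2 FPKM of that last sum. The DNAJB sum was 307 and 285 FPKM and the DNAJC sum 362 and 343. All DNAJ genes together were 0.712 of the HSPA sum under vehicle and 0.525 under Aza/TSA. The 12 members assigned to the endoplasmic reticulum summed to 677 and 616 FPKM. None was at least 2-fold higher and 1, DNAJB14, was lower, where 16.1% and 5.21% of all measured genes were. After GC correction 1, DNAJB11, was at least 2-fold higher and none lower, where 7.57% and 4.32% of all genes were.

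**Figure D4:**
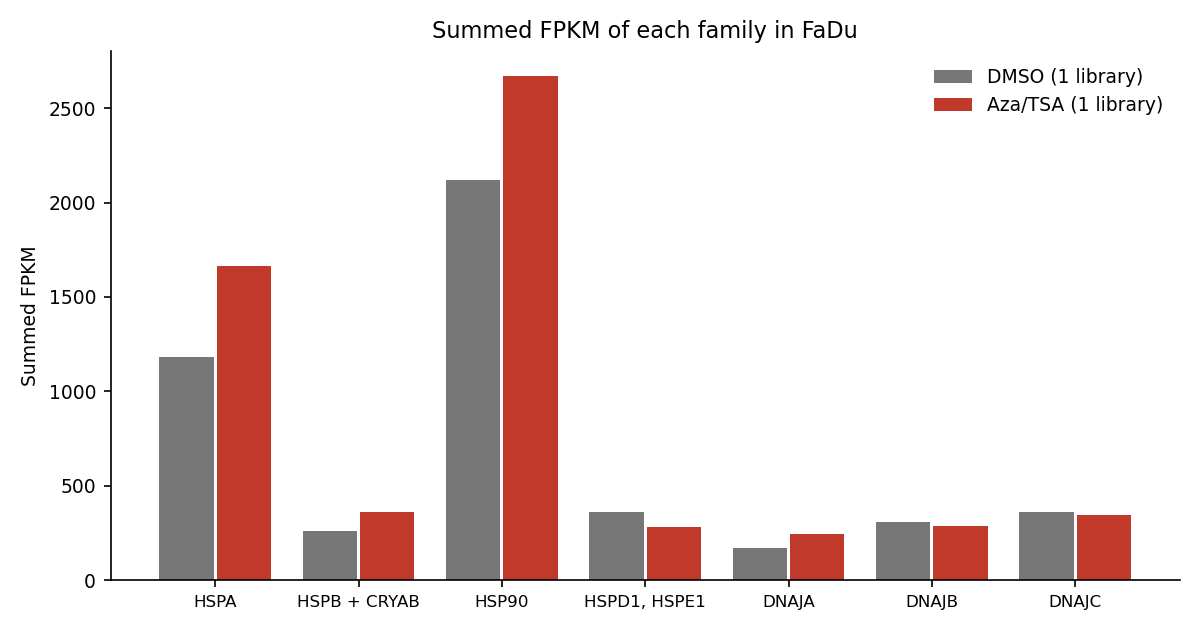
Summed FPKM of each family in the DMSO library (grey) and the Aza/TSA library (red), 1 library each, pseudogenes and HSPB11 included. The HSPA, HSP90, HSPB and DNAJA sums are higher in the treated library and those of HSPD1 with HSPE1, DNAJB and DNAJC lower, with HSPA from 1182 to 1664.

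Other genes of the chaperone system were taken from lists made by role. Their counts at 2-fold are to be read against the 16.1% of all measured genes that were higher and the 5.21% that were lower. All 18 HSP90 co-chaperones were measured, with 3 at least 2-fold higher, none lower and a median log2 change of 0.41 (0.22 after GC correction). TOMM34, which links HSP70 and HSP90, was 19.3 FPKM under vehicle and 53.2 under Aza/TSA. The kinase adaptor CDC37 was 45.9 and 106 FPKM, and NUDC was 39.4 and 85.1. After GC correction 1 of the list was still at least 2-fold higher. Among 12 HSP70 cofactors 2 were higher and 1 lower (median 0.21). The ubiquitin ligase STUB1 (CHIP) was 15.8 and 38.6 FPKM and BAG6 37.4 and 81.2, while the mitochondrial exchange factor GRPEL2 was 14.0 and 4.84. After GC correction none of these 12 passed 2-fold, with STUB1 at a log2 change of 0.32, BAG6 at 0.36 and GRPEL2 at −0.94 (before it −1.36). Of 14 HSF1 target genes outside the families, 3 were higher and none lower (median 0.24). They were DEDD2 at 3.86 and 13.5 FPKM, the collagen chaperone SERPINH1 at 32.6 and 99.2, and ubiquitin UBB at 536 and 1186. After GC correction their log2 changes were 0.73, 0.98 and 0.86 (before it 1.58, 1.58 and 1.15), and none passed 2-fold. All 8 subunits of TRiC, the cytosolic chaperonin, were higher, under both rescalings and after GC correction too. Of all measured genes, 7594 of 13558 were higher by any amount, and 5905 of 11566 after GC correction. Values of these subunits after length correction are not given here. The 8 subunits lay within 2-fold (median 0.37), with CCT7 at 129 and 193 FPKM, CCT3 at 169.8 and 250.04, and CCT4 at 116 and 161. The 6 prefoldin subunits, which deliver chains to TRiC, had a median of 0.04 and no 2-fold difference. The widest in that list were PFDN6 at 60.6 and 98.0 FPKM, PFDN4 at 27.4 and 19.1 and VBP1 at 68.8 and 50.6.

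Folding proteins of the endoplasmic reticulum outside the families had 1 of 14 higher and none lower (median 0.24). SDF2L1, a BiP cofactor, was 5.43 and 13.5 FPKM, the degradation factor SEL1L 43.7 and 23.8, and the BiP exchange factor HYOU1 33.8 and 60.3. None passed 2-fold after GC correction. Of 10 mitochondrial folding and protease genes 1 was higher and 1 lower (median −0.14), the protease HTRA2 at 4.94 and 12.4 FPKM and GRPEL2, with the disaggregase CLPB at 5.03 and 9.51. After GC correction neither HTRA2 nor GRPEL2 passed 2-fold, and 1 gene of the list, LONP1, was lower (19.9 and 10.98 FPKM). Of the other heat-shock factors and cofactors, 4 of 9 were measured and none was called at 2-fold. HSF2 was 9.47 and 7.49 FPKM, HSBP1, which binds HSF1, 77.8 and 63.0, and HSF2BP 0.281 and 1.02, which is 3.62-fold by FPKM and under 2-fold with the pseudocount. Relatives under other symbols had 7 of 9 measured, none higher and 1 lower (median −0.24). HSPBAP1 was 6.91 and 1.93 FPKM and was still called after GC correction (−1.14), and SEC63, a J-protein of the translocation channel, 17.2 and 10.3.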

How the data were processed

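The labels give 1 FaDu library per group, made with a stranded mRNA kit. Per the file headers the authors deposited FPKM for each gene symbol. The submitters' processing notes name TopHat 1.3.2, Cufflinks 2.0.2 and hg19. For annotation, filters and any scaling between libraries, the method is not given in the sources used here. FPKM were not rescaled, and rows of a repeated symbol were summed (25593 rows, 25548 symbols). The pseudocount was 1 FPKM, the filter 1 FPKM in either library and the thresholds 2-fold and 1.5-fold. With 1 library per group no test was possible. GC content came from the longest GENCODE 29 transcript of each symbol. Its trend was fitted by lowess (statsmodels 0.14.6, fraction 0.3) over genes reaching 5 FPKM in each library and subtracted, after a check on simulated data. The correction can be too strong near 0 FPKM. All 83 members were matched to RefSeq, older symbols included. Named members were all those at 2-fold, the 4 most abundant and the extremes of each family, HSF1, CRYAB and HSPH1, and up to 3 genes with the widest change per other list. Others named, among them LONP1, DNAJC15, HSP90AA6P, HSPA1A, HSPA1L, HSPA4L, HSPA6, HSPA14, HSPB9, the unmeasured members and DNAJ genes under 2-fold, were chosen after their values were seen. Members, lists and compartments were chosen from general knowledge with earlier results of these data known. Compartment lists are not complete. The UMSCC47 columns were not used. A marker gene of the leukocyte list is not reported here.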

Additional observations from a re-analysis of the deposited data

How the results depend on the processing

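With 1 library per group, no alternative replaces a replicate, and the depth behind values under 1 FPKM is unknown. A median was taken as moved past 0.2 on the log2 scale and a count past 1.5 times. The 11 higher and 5 lower members became 2 and 1 with a pseudocount of 5. Calls over all 13558 measured genes fell too in that setting, from 2178 and 706 to 893 and 253. The higher count was 6 with a filter at 5 FPKM, and the lower count was 1 after GC correction. The median of the small heat-shock proteins, 1.39 over 4 measured genes, was 1.80 with a pseudocount of 0.1, 0.79 with 5, 0.25 with no filter, 0.15 with a filter at 5 FPKM, 0.94 when columns were scaled to a common sum, 0.73 after GC correction and 1.15 after length correction. That of DNAJA, 0.43, was 0.22 with no filter and 0.70 after GC correction. That of DNAJB, 0.13, was −0.25 with a filter at 5 FPKM. After length correction HSP90 was 0.14 (from 0.36) and HSPD1 with HSPE1 −0.48 (from −0.26). The cause of these shifts was not tested, except that the filters change which genes count. Of the members called higher, HSPA2 and DNAJA4 were called under every alternative. HSPA1B and HSPB1, close to 2-fold, were lost under both rescalings, both corrections and a pseudocount of 5. The 7 ratios of summed FPKM, under 2 rescalings added after seeing the data, all kept their side of 1. No paired analysis was possible because each group holds 1 library.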
